A study of Mus musculus with 19 samples.

Results

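Chemokines and their receptors were followed in the livers of mice given polyethylene (PE) microplastic on a control diet or on a diet that induces metabolic dysfunction-associated steatohepatitis (MASH). Members were all genes in the count table whose symbol is Ccl, Ccr, Cxcl, Cxcr, Xcl or Xcr followed by a number and at most 1 letter, together with Cx3cl1, Cx3cr1 and Ackr1 to Ackr4. This rule took 61 of 55836 genes and used no measured value. The samples were 19 poly(A) RNA-seq libraries from bulk liver, 1 per mouse, from wild-type male C57BL/6 mice that were 8 weeks old at the start. CD + Veh (n = 4) received the control diet, which the labels name Chow Diet, and vehicle, a solution of Tween 20 in water. CD + PE (n = 5) received the same diet and 2 mg of PE per mouse per day by oral gavage for 8 weeks. MD + Veh (n = 5) and MD + PE (n = 5) received a diet rich in fat, fructose and cholesterol, the MASH Diet of the labels, with vehicle or with PE. All groups were therefore gavaged, and none carried an engineered allele. The comparisons ask how the diet changed hepatic chemokine transcripts, how PE changed them on each diet, and whether the effect of PE differed between diets.

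Chemokines are small secreted proteins that direct the movement of leukocytes. They are classed by the spacing of their first cysteines as CC (Ccl), CXC (Cxcl), C (Xcl) and CX3C (Cx3cl1), and they act through G protein-coupled receptors (Ccr, Cxcr, Xcr1, Cx3cr1), while the atypical receptors (Ackr) bind and remove or present them without signalling through G proteins. In the liver, Cxcl12 is made by stromal and endothelial cells, Ccl2 and its receptor Ccr2 bring in blood monocytes during injury, and Cxcl9, Cxcl10 and Cxcl11 are induced by interferons and attract lymphocytes that carry Cxcr3. Many chemokine genes lie side by side: on GRCm39, 14 members are on chromosome 11, 13 on chromosome 9 and 11 on chromosome 5.

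The promoters of 2 pairs of neighbours are shown. With vehicle, Ccl9 was lower on MASH diet while its neighbour Ccl6 was not. Cxcl9 was called there and its neighbour Cxcl10 was not, though both estimates were positive (log2 fold change 1.92 and 1.18). The difference between Cxcl9 and Cxcl10, and any part of promoter sequence in these results, was not tested. Each line gives the 250 bases before the RefSeq start site, 5′ to 3′ on the gene's strand, and every gene here is on the minus strand. Capitals mark matches to any of 4 motifs searched on both strands: NF-kB (GGGNNTTTCC), the interferon-stimulated response element (GAAANNGAAA), AP-1 (TGANTCA) and the gamma-activated site (TTCNNNGAA).
Ccl9: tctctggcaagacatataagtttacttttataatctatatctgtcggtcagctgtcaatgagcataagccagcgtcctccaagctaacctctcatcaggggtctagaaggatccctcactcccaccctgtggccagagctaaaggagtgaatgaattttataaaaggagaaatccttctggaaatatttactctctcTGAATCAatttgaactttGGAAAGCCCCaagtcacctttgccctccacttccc
Ccl6: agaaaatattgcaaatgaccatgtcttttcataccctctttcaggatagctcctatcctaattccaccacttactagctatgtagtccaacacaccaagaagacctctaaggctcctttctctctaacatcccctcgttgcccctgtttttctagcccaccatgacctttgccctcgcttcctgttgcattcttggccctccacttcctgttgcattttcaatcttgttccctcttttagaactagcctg
Cxcl9: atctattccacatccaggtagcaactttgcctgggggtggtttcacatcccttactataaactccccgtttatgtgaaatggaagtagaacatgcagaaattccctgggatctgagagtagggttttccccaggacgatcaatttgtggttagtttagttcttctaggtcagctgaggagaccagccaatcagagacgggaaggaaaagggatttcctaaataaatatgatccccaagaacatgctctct
Cxcl10: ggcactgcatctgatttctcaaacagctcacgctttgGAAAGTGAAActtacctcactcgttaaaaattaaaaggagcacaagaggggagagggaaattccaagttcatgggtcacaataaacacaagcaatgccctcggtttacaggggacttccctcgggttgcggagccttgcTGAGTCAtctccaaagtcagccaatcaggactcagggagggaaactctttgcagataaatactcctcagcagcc
On GRCm39 these windows are chr11:83469463-83469712 for Ccl9, chr11:83483914-83484163 for Ccl6, chr5:92475939-92476188 for Cxcl9 and chr5:92496749-92496998 for Cxcl10. The RefSeq start of Ccl9 lies 3699 bases inside the GENCODE gene, while the starts of Ccl6 and Cxcl10 coincide with it and that of Cxcl9 is 7 bases inside. The Ccl9 window held an AP-1 match starting 53 bases and an NF-kB match starting 35 bases before the start site. The Cxcl10 window held an interferon-stimulated response element match 213 bases and an AP-1 match 74 bases before it. Within these windows the matches did not overlap each other, and the Ccl6 and Cxcl9 windows held none of the 4 letter patterns. Over 32851 mouse promoter windows of the same length, 1.41% held the NF-kB pattern, 2.98% the interferon-stimulated response element, 6.75% AP-1 and 7.02% the gamma-activated site. The RefSeq table, whose own build is GRCm38.p6, held 49 windows for 45 members, and 6 of the 49 held the NF-kB pattern, 3 the interferon-stimulated response element, 5 AP-1 and 3 the gamma-activated site. A match is a description of letters and not a bound site. Other spellings of these motifs were not searched, so the lack of a match does not show that a site is absent.

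Library totals ran from 10398820 to 15456729 estimated counts, with group medians of 15089731.5 in CD + Veh, 14790140 in MD + Veh, 10837229 in CD + PE and 11615001 in MD + PE. Vehicle and PE livers have separate library numbers (39 to 47 and 48 to 57), so that PE, library order and depth cannot be told apart. The pseudogene Rps6-ps4 also divides the libraries by number, with 1088 to 1690 counts in numbers 39 to 45 and 0 in numbers 46 to 57, the last including MD + Veh replicates 4 and 5. Albumin and Apoa1, which define hepatocytes, were abundant in all groups; the summed level of 5 hepatocyte markers ranged from 68300 to 84600 CPM (counts scaled to a common library total) in CD + Veh and from 46500 to 60400 CPM in MD + Veh. Skeletal muscle markers, foreign to liver, summed to 2710 CPM in MD + Veh replicate 1 and 352 CPM in CD + PE replicate 1, and bile duct and intestinal markers were highest in MD + PE replicate 2 (148 and 218 CPM). CD + PE replicate 2 stood apart by its Kupffer cell markers (734 CPM against 93.3 CPM in the lowest library of its group). Where such a library decided a called or named difference of a member, the value without it is given beside it.

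Levels are given as CPM scaled by TMM (trimmed mean of M values) library factors. Of the 61 members, 55 had at least 1 count and 6 had none in any library (Ccl1, Ccl12, Ccl26, Cxcl3, Cxcl15 and Cxcr1). A count of 0 allows up to 3 counts, which is 0.186 to 0.301 CPM depending on the library. A group mean of at least 1 CPM was reached by 24 members in some group and by 13 members in every group, and 10 members were at or above 1 CPM in all 19 libraries. By group, 15 members reached 1 CPM in CD + Veh, 22 in MD + Veh, 14 in CD + PE and 17 in MD + PE. The genes that were kept for testing by a filter on low counts included 28 members, so 33 members, all below 1 CPM, were not tested. This filter keeps a gene that is high in any 1 group, and counts over the 28 members are read only against the same counts over all genes.

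The level of members was set by few genes. Per kilobase of exon, Cxcl12 led in every group, at 28.9 CPM per kb in CD + Veh, 28.5 in MD + Veh, 34.9 in CD + PE and 28.4 in MD + PE. Cxcl12 alone held 52.7% to 78.4% of all member counts in a library. Ccl9 came next in CD + Veh at 15 CPM per kb, followed by Cxcl1 at 4.35 and Cxcl9 at 3.74 CPM per kb. In MD + Veh the order after Cxcl12 was Cxcl9 (14.1 CPM per kb), Ccl9 (8.48), Cxcl1 (5.04) and Ccl6 (4.28). The receptors were lower: Cxcr4 was at 0.238 and Ccr2 at 0.232 CPM per kb in CD + Veh. Without Cxcl12, the members summed to 110.7 to 118.5 CPM in the CD + Veh libraries, 91.02 to 161.5 CPM in MD + Veh, 91.11 to 169.3 CPM in CD + PE and 83.97 to 160.6 CPM in MD + PE, and these ranges overlap.

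**Figure D1:**
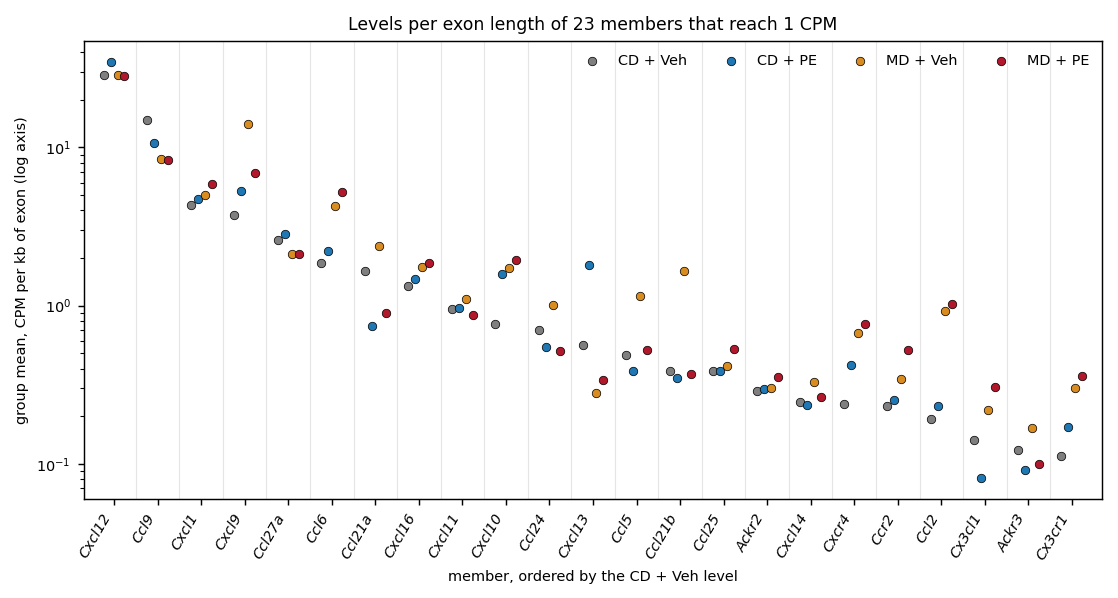
Group means in CPM per kb of exon, on a log axis, for 23 of the 24 members that reach 1 CPM in some group, ordered from left to right by the CD + Veh level; each color is a group. Cxcl12 lies highest in all 4 groups (28.4 to 34.9 CPM per kb), and Cxcl9 in MD + Veh (14.1 CPM per kb) lies above Ccl9 of the same group (8.48 CPM per kb).

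MASH diet was compared with control diet in vehicle-treated mice (MD + Veh against CD + Veh). Ccl9 fell, and Cxcl9, Ccl2 and Cxcr4 rose. A gene was called changed at an adjusted p below 0.05 (edgeR quasi-likelihood test, Benjamini-Hochberg over all 13597 genes tested) with a log2 fold change of at least 0.38 in size. These 4 calls are 14.3% of the 28 members tested, against 10.4% of all genes tested. Of the calls, 3 were higher, where 4.74% of all genes tested were, and 1 was lower, where 5.63% were. At an unadjusted p below 0.05 there were 9 members, beside 28.6% of all genes tested. The median log2 fold change was 0.50 over the members and -0.0042 over all genes. Groups did not overlap for 5 members (Ccl9, Ccl6, Cxcl9, Ccl2 and Cxcr4), where 16.2% of all genes tested did not overlap. The fold changes of 27 of the 28 members are drawn for each comparison in the plot of fold changes with their standard errors.

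The time of day at which livers were taken is not given in the sources used here, and a clock score differed between groups. The score is the mean log2 CPM of 4 genes of the clock's positive arm minus that of 8 clock-controlled genes of the opposite phase. It ran from -4.42 to -2.95 in CD + Veh, from -1.90 to 0.159 in MD + Veh, from -2.89 to 0.82 in CD + PE and from -1.76 to -0.00501 in MD + PE. CD + Veh lay below every liver of the other 3 groups, so the score separated both the diets with vehicle and PE from vehicle on control diet, while the PE groups overlapped. With the score as a covariate 0 of 28 members were called between the vehicle groups, where the diet and the score cannot be told apart. The share of all genes called in that fit is not given here. In that fit the log2 difference of Ccl2 was 2.43 (edgeR adjusted p = 0.268) and that of Cxcr4 was 1.28 (edgeR adjusted p = 0.407).

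Ccl9 (ENSMUSG00000019122, chr11:83463745-83473161, GRCm39) encodes a CC ligand of Ccr1, made by macrophages and other myeloid cells. Ccl9 stood at 47.6, 44.9, 42.1 and 52.5 CPM in CD + Veh and at 28.7, 28.2, 29.3, 21.4 and 24.4 CPM in MD + Veh. Ccl9 stood at 34.5, 34.2, 34.5, 33.2 and 29.4 CPM in CD + PE and at 32.2, 17.8, 15.8, 35.1 and 29.8 CPM in MD + PE. Every CD + Veh liver was above every liver of the other 3 groups. The mean fell from 46.8 ± 4.42 CPM (SD, n = 4) to 26.4 ± 3.38 CPM (SD, n = 5) on MASH diet, a log2 fold change of -0.82 (SE 0.176, edgeR adjusted p = 0.00357). The call held without each of the 19 libraries in turn, and was lost in the fit with the clock score as covariate (log2 fold change -0.97, edgeR adjusted p = 0.0664). In bulk liver, a change in RNA per cell and a change in the number of cells of a type cannot be told apart.

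Ccl6 (ENSMUSG00000018927, chr11:83478708-83483913) is the next gene to Ccl9 on the same strand, 5546 bases away with no gene between them, and encodes another macrophage CC ligand of Ccr1; its values are given in full after they were seen, because its groups did not overlap. Ccl6 was at 3.48, 2.43, 3.42 and 4.1 CPM in CD + Veh and at 8.34, 7.61, 10.9, 6.03 and 6.02 CPM in MD + Veh. Ccl6 was at 1.91, 8.85, 3.97, 2.61 and 2.86 CPM in CD + PE and at 9.17, 5.51, 4.43, 17 and 11.5 CPM in MD + PE. All MD + Veh livers were above all CD + Veh livers, while in the PE groups replicate 2 of CD + PE (8.85 CPM) reached into the MD + PE range. The difference between the vehicle groups was 1.21 on the log2 scale (SE 0.403, edgeR adjusted p = 0.0506) and did not pass the test; DESeq2 gave an adjusted p of 0.0209 for Ccl6, and the fit of the vehicle groups alone gave 0.0042.

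The ratio of Ccl9 to Ccl6 CPM in a library combines these neighbours, and was formed after the values of Ccl6 were seen. Its median was 13.2 in CD + Veh (12.3 to 18.5), 3.55 in MD + Veh (2.69 to 4.05), 10.3 in CD + PE (3.86 to 18.1) and 3.23 in MD + PE (2.06 to 3.57). The vehicle groups did not overlap. This was fixed, since every MD + Veh liver was lower for Ccl9 and higher for Ccl6 than every CD + Veh liver. In the PE groups the lowest CD + PE ratio, 3.86, lay just above the highest of MD + PE. The ratio was not tested. Both genes are overlapped by a long noncoding RNA of the opposite strand, E230016K23Rik, and the libraries were stranded, with the strand setting detected automatically during quantification.

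**Figure D2:**
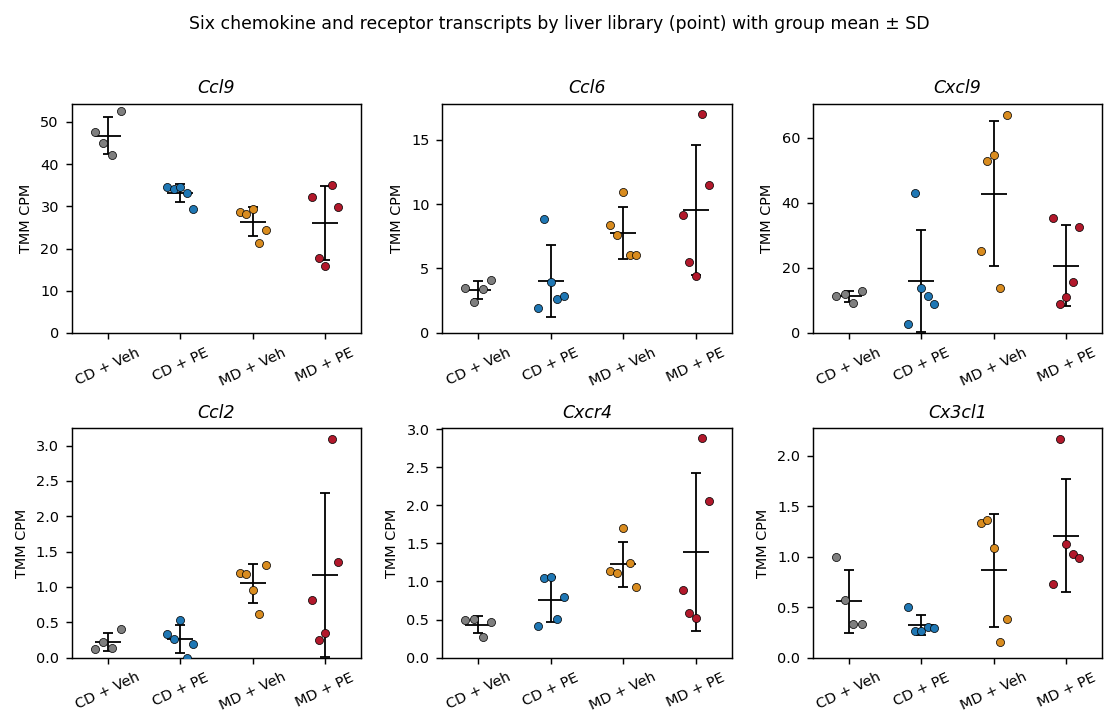
TMM CPM (vertical axes, linear from 0) of Ccl9, Ccl6, Cxcl9, Ccl2, Cxcr4 and Cx3cl1 in the 4 groups; each point is 1 liver, the horizontal bar is the group mean and the error bars are the SD. The 4 CD + Veh livers lie above all others for Ccl9 (42.1 to 52.5 CPM) and below all MD + Veh livers for Ccl6, Cxcl9, Ccl2 and Cxcr4.

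The interferon-inducible ligands Cxcl9, Cxcl10 and Cxcl11 all reached 1 CPM in every group, and 1 of the 3 passed the test. Cxcl9 (ENSMUSG00000029417, chr5:92469206-92475945) was at 11.2, 11.9, 9.05 and 13 CPM in CD + Veh and at 25.3, 52.9, 54.6, 13.8 and 67.1 CPM in MD + Veh. Cxcl9 was at 2.82, 43, 13.8, 11.4 and 8.79 CPM in CD + PE and at 35.3, 8.85, 11.1, 15.7 and 32.5 CPM in MD + PE. The vehicle groups did not overlap, although MD + Veh replicate 4 (13.8 CPM) was close to the highest CD + Veh liver (13 CPM), and the PE groups overlapped almost completely. On MASH diet Cxcl9 rose from 11.3 ± 1.67 to 42.7 ± 22.3 CPM (SD), a log2 fold change of 1.92 (SE 0.586, edgeR adjusted p = 0.0351). The size ran from 1.71 to 2.14 without each library in turn, and the call was lost without any of the 4 CD + Veh livers or without MD + Veh replicate 2, 3 or 5. With the clock score as covariate the Cxcl9 difference was 0.84 (edgeR adjusted p = 0.607).

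Cxcl10 and Cxcl11, which lie beside Cxcl9 with 18551 bases between Cxcl9 and Cxcl10 and 10654 between Cxcl10 and Cxcl11, did not pass the test on MASH diet. Cxcl10 had a mean of 1.72 ± 0.513 CPM in CD + Veh and 3.91 ± 1.19 CPM in MD + Veh (SD; log2 fold change 1.18, SE 0.514, edgeR adjusted p = 0.135). Cxcl11 had 3.6 ± 1.12 and 4.21 ± 0.579 CPM (log2 fold change 0.22, SE 0.187, edgeR adjusted p = 0.466). Cxcl10 and Cxcl11 both overlap Art3 of the opposite strand. Cxcr3, the receptor of all 3 ligands, had at least 1 count in all 19 libraries but no library above 0.885 CPM, and it was not tested.

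Among the monocyte ligands only Ccl2 was tested. Ccl2 (ENSMUSG00000035385, chr11:81926397-81928279), the main ligand of Ccr2, was at 0.124, 0.215, 0.134 and 0.404 CPM in CD + Veh and at 1.2, 1.18, 0.954, 0.619 and 1.31 CPM in MD + Veh. Ccl2 was at 0.332, 0.263, 0.529, 0 and 0.197 CPM in CD + PE and at 0.812, 0.251, 0.347, 3.09 and 1.35 CPM in MD + PE. The vehicle groups did not overlap, and the highest value, 3.09 CPM, was in MD + PE replicate 4. Ccl2 rose from 0.219 ± 0.13 to 1.05 ± 0.275 CPM (SD) with vehicle, a log2 fold change of 2.23 (SE 0.682, edgeR adjusted p = 0.0355). These are low counts: 1 CPM is 9.967 to 16.16 counts in a library, and all 4 CD + Veh values are at or below 0.404 CPM. The call was lost without CD + Veh replicate 1, 2 or 3 or MD + Veh replicate 1, 2, 3 or 5, with adjusted p between 0.0529 and 0.102 in those edgeR fits. Ccl7 reached at most 0.549 CPM and Ccl8 at most 0.309 CPM.

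The receptors Ccr2, Cxcr4, Cxcr6 and Cx3cr1 were among those that passed the low-count filter, and of these 4 Cxcr4 passed the test on MASH diet. Cxcr4 (ENSMUSG00000045382, chr1:128515936-128520044) is the receptor of Cxcl12 on leukocytes and other cells. Cxcr4 was at 0.497, 0.501, 0.268 and 0.471 CPM in CD + Veh and at 1.14, 1.11, 1.7, 1.24 and 0.926 CPM in MD + Veh. Cxcr4 was at 0.414, 1.05, 1.06, 0.502 and 0.79 CPM in CD + PE and at 0.893, 0.585, 0.521, 2.88 and 2.06 CPM in MD + PE. The vehicle groups did not overlap and the PE groups did, with replicates 4 and 5 of MD + PE high. Cxcr4 rose from 0.434 ± 0.111 to 1.22 ± 0.291 CPM (SD) with vehicle, a log2 fold change of 1.48 (SE 0.475, edgeR adjusted p = 0.0439). This call was the nearest to the threshold: it was lost without any of the 4 CD + Veh livers, without MD + Veh replicate 1, 2, 3 or 4 and without CD + PE replicate 5.

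Ccr2, the monocyte receptor of Ccl2, was at 1.99, 2, 0.67 and 1.61 CPM in CD + Veh and at 2.97, 3.16, 1.57, 1.24 and 2.78 CPM in MD + Veh. Ccr2 was at 1.08, 3.42, 1.59, 1.4 and 1.09 CPM in CD + PE and at 2.35, 2.76, 1.82, 8.78 and 2.15 CPM in MD + PE. MD + Veh replicates 3 and 4 lay inside the CD + Veh range, and the highest liver of all was MD + PE replicate 4. Ccr2 had means of 1.57 ± 0.625 CPM in CD + Veh and 2.34 ± 0.876 CPM in MD + Veh (SD; edgeR adjusted p = 0.46), and Cx3cr1, the receptor of Cx3cl1, had 0.52 ± 0.299 and 1.4 ± 0.946 CPM (edgeR adjusted p = 0.175).

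Cxcl12, the ligand of Cxcr4, did not pass the test. Cxcl12 was at 236, 207, 282 and 237 CPM in CD + Veh and at 239, 241, 227, 250 and 234 CPM in MD + Veh. Cxcl12 was at 285, 232, 310, 296 and 332 CPM in CD + PE and at 282, 255, 254, 179 and 214 CPM in MD + PE. The vehicle groups overlapped, with a log2 difference of -0.01 and a 95% interval from -0.245 to 0.22, and MD + PE replicate 4 was the lowest liver. The largest Cxcl12 values were in CD + PE, where the mean was 291 ± 37.6 CPM against 241 ± 31 CPM in CD + Veh (SD).

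Ligands of other roles did not pass the test between the vehicle groups. Cxcl1, which draws neutrophils, was at 5.47, 8.44, 12.8 and 5.99 CPM in CD + Veh, and its MD + Veh values were 11.1, 8.91, 9.6, 8.43 and 9.42 CPM. Its PE groups were at 12.5, 4.21, 6.88, 12 and 8.98 CPM on control diet and 9.25, 6.1, 9.73, 16.1 and 14.4 CPM on MASH diet. All 4 groups of Cxcl1 overlapped. Cxcl16, a membrane-anchored ligand of Cxcr6 that also binds oxidized lipids, was at 7.7, 4.44, 7.31 and 7.74 CPM in CD + Veh and 10.4, 11.2, 8.24, 7.27 and 7.72 CPM in MD + Veh. Cxcl16 was at 4.81, 15.4, 5.2, 4.92 and 7.6 CPM in CD + PE and 10.3, 9.6, 4.95, 13.2 and 9.69 CPM in MD + PE, and CD + PE replicate 2 held its highest value. Cxcl16 differed by 0.40 on the log2 scale between the vehicle groups (SE 0.314, edgeR adjusted p = 0.43).

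Ccl27a and Ccl25 are epithelial ligands, known for homing of lymphocytes to skin and gut. Ccl27a was at 6.03, 8.01, 6.57 and 7.47 CPM in CD + Veh and 5.18, 5.51, 5.93, 4.72 and 7.33 CPM in MD + Veh. Ccl27a was at 6.88, 6.31, 8.64, 8.23 and 8.19 CPM in CD + PE and 5.36, 6.6, 5.73, 5.21 and 5.92 CPM in MD + PE. MD + PE livers were lower than most CD + PE livers, with MD + PE replicate 2 (6.6 CPM) above the lowest of CD + PE. The log2 differences by diet were -0.29 (SE 0.139, edgeR adjusted p = 0.175) with vehicle and -0.41 (SE 0.134, edgeR adjusted p = 0.0741) with PE. Ccl25 stayed between 3.81 and 9.19 CPM in all 19 libraries, and that maximum was in MD + PE replicate 2, the library with the most bile duct and intestinal marker RNA.

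Ccl24, an eosinophil ligand of Ccr3, was at 1.3, 0.858, 0.939 and 0.875 CPM in CD + Veh and 1.14, 2.1, 1.09, 1.47 and 1.39 CPM in MD + Veh. Ccl24 was at 0.58, 0.964, 0.441, 0.903 and 0.987 CPM in CD + PE and 0.893, 0.251, 1.22, 0.754 and 0.538 CPM in MD + PE. Only MD + Veh reached a mean of 1 CPM for Ccl24, and the vehicle groups overlapped, as did the PE groups, while every MD + Veh liver lay above every CD + PE liver. Ccl5, which attracts T cells and monocytes, likewise reached 1 CPM only in MD + Veh (1.18 ± 0.405 CPM against 0.503 ± 0.365 CPM in CD + Veh, SD; log2 fold change 1.19, SE 0.515, edgeR adjusted p = 0.131). Cxcl14 was at 1.13 ± 0.486 CPM in MD + Veh and 0.846 ± 0.183 CPM in CD + Veh (SD).

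The lymphoid ligands Ccl21a, Ccl21b, Ccl21d and Ccl21f come from near-identical gene copies on chromosome 4, and how the estimated counts were split among them is uncertain. Ccl21a was at 0.248, 3.93, 1.34 and 0.875 CPM in CD + Veh and 8.47, 0.99, 1.5, 0.232 and 0.386 CPM in MD + Veh. Ccl21a was at 1.66, 0.175, 0.617, 0.401 and 0.79 CPM in CD + PE and 0.731, 0.919, 0.695, 1.1 and 0.897 CPM in MD + PE. MD + Veh replicate 1 was far above the rest. Summed over the copies, Ccl21 was at 14 CPM in MD + Veh replicate 1, the library with 2710 CPM of skeletal muscle markers, and at 5.94 CPM or less in all others. Ackr3, the scavenger of Cxcl12, was also highest in that library (4.24 CPM), and its other 18 libraries were at 1.93 CPM or less. The part of muscle or adjoining tissue in these values was not tested.

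The atypical receptor Ackr2, which clears inflammatory CC chemokines, was at 1.18, 0.858, 1.94 and 1.35 CPM in CD + Veh and 1.26, 1.79, 1.16, 1.7 and 1.08 CPM in MD + Veh. Ackr2 was at 1.74, 1.4, 1.06, 1 and 1.58 CPM in CD + PE and 1.62, 1.59, 1.56, 1.85 and 1.53 CPM in MD + PE. The 4 groups of Ackr2 overlapped, and the log2 difference by diet with vehicle was 0.07 (SE 0.254, edgeR adjusted p = 0.782). Ackr4 had a mean of 0.859 CPM or less in every group, and Ackr1 reached at most 1.14 CPM in any library.

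Genes through which chemokine receptors act were tested in 4 lists, to be read against the 10.4% of all genes called in this comparison. Of 23 receptor signalling genes tested, 2 rose in MD + Veh against CD + Veh: Dock2, a Rac activator of leukocyte migration (log2 fold change 1.58, edgeR adjusted p = 0.0133), and Prex1, a Rac exchange factor (0.96, edgeR adjusted p = 0.0308). Of 10 genes of receptor desensitisation, Grk5, a receptor kinase, rose (1.18, edgeR adjusted p = 0.00184), and of 10 genes of ligand processing and presentation, the heparan sulfate carrier Sdc1 rose (0.43, edgeR adjusted p = 0.00182). Of 19 inducers of chemokine transcription, the endotoxin receptor Tlr4 rose (1.38, edgeR adjusted p = 0.0156). Tnf, Ifng and Il6 were below the filter, with 41, 13 and 11 counts over all libraries. Of 5 tested relatives outside the symbol rule (Ccrl2, Cklf, Cmklr1, Rarres2 and Mif), 0 passed the test in any comparison.

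Some cell markers were also called between the vehicle groups, to be read against the 10.4% of all genes called there. Among the lists without a call were B cell (4 markers tested), sinusoidal endothelium (6), vascular and lymphatic endothelium (5), bile duct (4) and mesothelium (2). Of 8 Kupffer cell markers 0 passed the test between the vehicle groups, with a median log2 fold change of 0.67, while their summed level ranged from 112 to 198 CPM in CD + Veh and from 227 to 342 CPM in MD + Veh. Of 5 markers of lipid-associated macrophages, Gpnmb (3.72, edgeR adjusted p = 0.0226) and Lpl (2.42, edgeR adjusted p = 0.000546) rose and Cd9 fell (-0.87, edgeR adjusted p = 0.0425), and the sum ran from 70.6 to 92.2 CPM and from 81.3 to 242 CPM. The 242 CPM was in MD + Veh replicate 1, the library with the most skeletal muscle marker RNA. Lpl was at 177 CPM there and at 38.7 to 69.2 CPM in the other MD + Veh livers. Of 8 T cell markers, 5 were tested and Cd4, which myeloid cells also carry, rose (1.21, edgeR adjusted p = 0.0323), with sums of 3.85 to 6.7 CPM and 5.57 to 10.7 CPM. Of 6 dendritic cell markers, 3 were tested and Itgax rose (2.06, edgeR adjusted p = 0.0355), with sums of 8.38 to 10.4 and 9.74 to 14.3 CPM. Monocyte markers (3, of which 1 was tested) summed to 2.15 to 4.37 and 3.24 to 4.33 CPM, neutrophil markers (7, of which 1 was tested) to 1.36 to 2.09 and 1.47 to 3.78 CPM, and NK cell markers (6, none tested) to 0.745 to 1.65 and 0.851 to 2.45 CPM. The neutrophil marker Ly6g had 0 counts in every library. The 6 skeletal muscle markers were all called higher in MD + Veh, with sums of 0.311 to 31.4 CPM in CD + Veh and 1.85 to 2710 CPM in MD + Veh. Of 5 hepatocyte markers, Alb (-0.49, edgeR adjusted p = 0.0324) and Apoa1 (-0.42, edgeR adjusted p = 0.0106) fell. Of 7 stellate cell and fibroblast markers, Rgs5 rose (0.66, edgeR adjusted p = 0.0113), with sums of 159 to 235 and 218 to 409 CPM. Of 5 red blood cell markers 0 passed the test, with a median log2 fold change of 1.33 and sums of 147 to 220 and 183 to 745 CPM. The part of these cell types in the chemokine differences was not tested. Without the 3 livers highest in muscle or in bile duct and intestinal markers, the 4 called members kept their calls, with log2 fold changes of -0.84 for Ccl9, 2.08 for Cxcl9, 2.19 for Ccl2 and 1.52 for Cxcr4.

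MASH diet was next compared with control diet in PE-treated mice (MD + PE against CD + PE). Cx3cl1 rose, the only member of 28 to pass the test (3.57%, against 4.61% of all genes tested), and it was also the only member whose groups did not overlap (6.2% of all genes tested). Cx3cl1 (ENSMUSG00000031778, chr8:95498637-95509055) encodes fractalkine, which is held on the membrane of endothelial and epithelial cells and binds Cx3cr1. Cx3cl1 was at 0.497, 0.263, 0.265, 0.301 and 0.296 CPM in CD + PE and at 0.731, 2.17, 1.13, 1.03 and 0.987 CPM in MD + PE. Cx3cl1 was at 0.994, 0.572, 0.335 and 0.336 CPM in CD + Veh and at 1.33, 1.36, 1.09, 0.155 and 0.386 CPM in MD + Veh. The PE groups did not overlap, while the vehicle groups did, with MD + Veh replicates 4 and 5 low.

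Between the PE groups the mean of Cx3cl1 rose from 0.324 ± 0.0983 to 1.21 ± 0.558 CPM (SD, n = 5 each), a log2 fold change of 1.86 (SE 0.518, edgeR adjusted p = 0.0349). Cx3cl1 counts were low: 6, 3, 3, 3 and 3 in the CD + PE livers, where 3 counts were used as the detection floor. The MD + PE livers held 9, 26, 13, 15 and 11 counts. With vehicle the Cx3cl1 difference was 0.63 (SE 0.501, edgeR adjusted p = 0.434). The highest Cx3cl1 value, 2.17 CPM, was in MD + PE replicate 2, whose bile duct and intestinal markers were also the highest. Without that liver the Cx3cl1 difference was 1.54 (edgeR adjusted p = 0.0992), and without the 3 livers high in other tissues it was 1.76 (edgeR adjusted p = 0.105). The call was also lost without CD + PE replicate 2, 3, 4 or 5 or MD + PE replicate 3, and the part of bile duct or intestinal RNA in it was not tested. Of 5 bile duct markers, 4 were tested and 0 passed the test between the PE groups, with sums of 8.29 to 17.1 CPM in CD + PE and 11.1 to 148 CPM in MD + PE. Of 6 intestinal markers, 2 were tested and Fabp2 rose (log2 fold change 0.72, edgeR adjusted p = 0.000439), with sums of 69.6 to 102 CPM and 113 to 218 CPM. Fabp2 was in every liver, at 55.3 to 76.9 CPM in CD + PE and 97.7 to 117 CPM in MD + PE, so it set most of these sums. Vil1, Cdh17 and Muc2 reached 22.5, 9.94 and 16.4 CPM in MD + PE replicate 2 and at most 1.22 CPM in any other library. Fabp2 also rose between the vehicle groups (log2 fold change 1.08, edgeR adjusted p = 7.56e-06), with intestinal sums of 52.4 to 84.9 CPM in CD + Veh and 116 to 131 CPM in MD + Veh. Of these, Fabp2 alone was 42.6 to 66.5 CPM and 104 to 121 CPM.

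The 4 members called with vehicle, and Ccl6, did not pass the test between the PE groups. Ccl6 differed by 1.24 (SE 0.377, edgeR adjusted p = 0.0536), Ccl2 by 2.10 (SE 0.642, edgeR adjusted p = 0.0543) and Cxcr4 by 0.87 (SE 0.43, edgeR adjusted p = 0.25) on the log2 scale. Ccl6 passed with the clock score as a covariate (log2 fold change 1.2, edgeR adjusted p = 0.0387), and Ccl2 and Ccl6 passed without MD + PE replicate 2 or 3. Ccl9 differed by -0.34 (SE 0.169, edgeR adjusted p = 0.254) and Cxcl9 by 0.37 (SE 0.539, edgeR adjusted p = 0.747). Cxcl13, a B cell ligand, was lower by 2.43 on the log2 scale (SE 0.793, edgeR adjusted p = 0.0722), and its CD + PE values were 0.829, 6.57, 1.85, 0.502 and 0.691 CPM. That mean rests on CD + PE replicate 2: without it, the Cxcl13 difference was -1.33. Without the same liver 4 members passed the test, among them Ccl6, which rose by 1.75 (edgeR adjusted p = 0.00331), Cxcl16, which rose by 0.77 (edgeR adjusted p = 0.0485), and Ccl27a, which fell by 0.47 (edgeR adjusted p = 0.0341), and Cx3cl1 missed the threshold. DESeq2 called Ccl2, Ccl6, Cxcl13 and Cx3cl1. The shares of all genes called without that liver and by DESeq2 are not given here. Neither count is therefore read as a result about the members. Of the lists of receptor signalling, desensitisation, ligand processing and inducers of transcription, 1 gene passed the test between the PE groups: Irf1, an activator of interferon-inducible chemokines, fell by 0.71 on the log2 scale (edgeR adjusted p = 0.0381), with 69.6 CPM in CD + PE replicate 2, 28.4 to 33.2 CPM in the other CD + PE livers and 18.1 to 31.3 CPM in MD + PE. The Irf1 difference without CD + PE replicate 2 is not given here, so how far the call rests on that liver was not tested. In the comparisons of PE with vehicle, 0 genes of these lists passed the test.

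**Figure D3:**
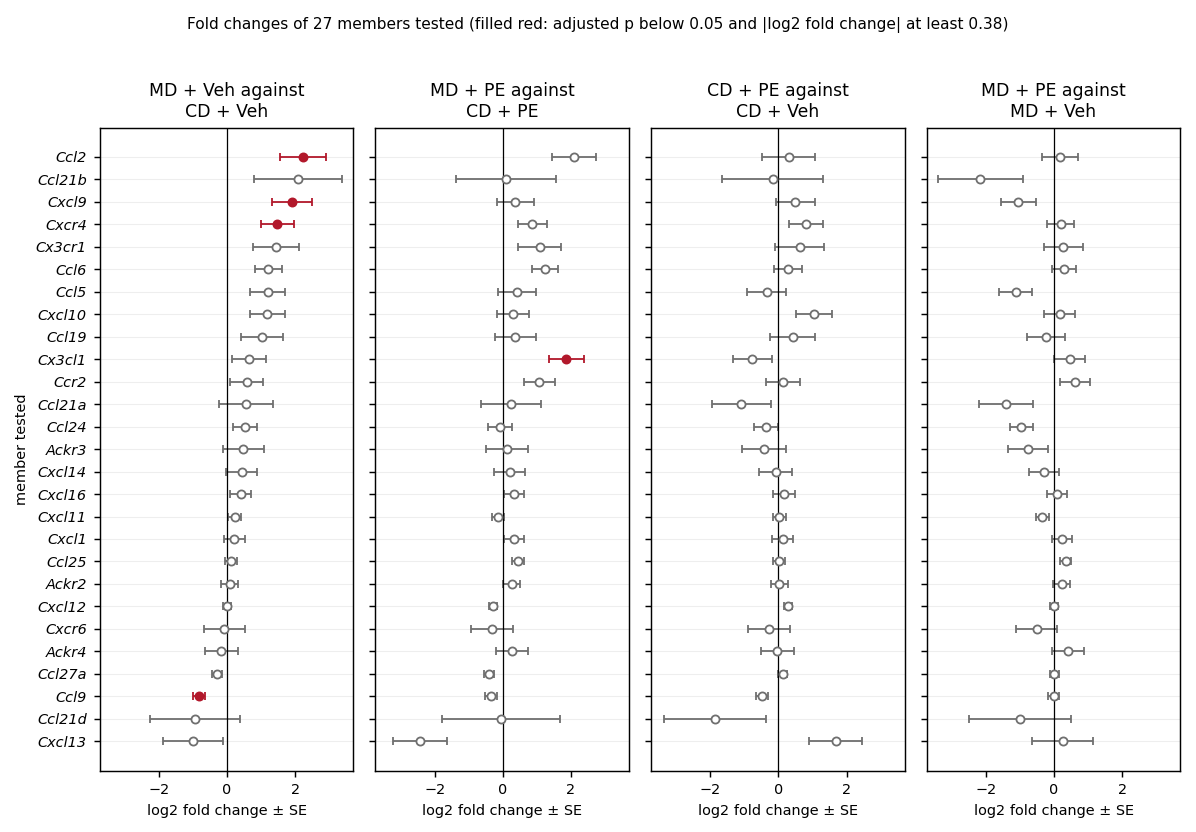
Log2 fold change (horizontal axes) of 27 of the 28 members tested in 4 comparisons, ordered by the MD + Veh against CD + Veh value; circles are the edgeR estimates, error bars 1 SE, and filled red circles pass the test. Ccl2, Cxcl9, Cxcr4 and Ccl9 are filled in the first panel, Cx3cl1 in the second and none in the panels of PE against vehicle; panels that share a group are not independent.

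PE was compared with vehicle on control diet (CD + PE against CD + Veh). Of 28 members 0 passed the edgeR test, where 2.92% of all genes tested did; 3 members were at an unadjusted p below 0.05 (17.5% of all genes tested), and DESeq2 also called 0. Ccl9 had the smallest adjusted p. Its 5 CD + PE values, from 29.4 to 34.5 CPM, all lay below the 4 CD + Veh values, from 42.1 to 52.5 CPM, and Ccl9 was the only member with groups that did not overlap (7.85% of all genes tested). The difference of Ccl9 was -0.50 on the log2 scale (SE 0.176, edgeR adjusted p = 0.128). In a fit of these 2 groups alone Ccl9 passed the test (log2 fold change -0.48, edgeR adjusted p = 0.0159), and with the division of library numbers between 45 and 46 as a covariate it was -0.17 (edgeR adjusted p = 0.858). With the clock score as a covariate, which also did not overlap between these groups, the Ccl9 difference was -0.60 (edgeR adjusted p = 0.188).

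Cxcl12 was higher in CD + PE by 0.27 (SE 0.119, edgeR adjusted p = 0.228) and Cxcl13 by 1.68 (SE 0.787, edgeR adjusted p = 0.273) on the log2 scale, without passing the test. Cxcl10 differed by 1.04 (SE 0.52, edgeR adjusted p = 0.314), and 1 liver, CD + PE replicate 2, held 9.11 CPM of Cxcl10 while the other CD + PE livers held 0.746 to 3.01 CPM. In that liver Cxcl9, Cxcl10, Cxcl13, Cxcl16 and Ccr2 were all the highest of their group, with 734 CPM of Kupffer cell markers. Intervals were wide for several members: the 95% interval of the log2 difference was from -1.24 to 1.84 for Ccl2, at 0.219 CPM in CD + Veh, and from -0.644 to 1.64 for Cxcl9, whose CD + PE livers ran from 2.82 to 43 CPM. Without CD + PE replicate 2 the log2 difference was 0.58 for Cxcl13 (edgeR adjusted p = 0.733), 0.32 for Cxcl10 (edgeR adjusted p = 0.77) and -0.30 for Cxcl9 (edgeR adjusted p = 0.827).

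PE was compared with vehicle on MASH diet (MD + PE against MD + Veh). Of 28 members 0 passed the edgeR test (1.08% of all genes tested did), 2 were at an unadjusted p below 0.05 (15.7% of all genes tested), DESeq2 called 0, and 0 members had groups that did not overlap (3.57% of all genes tested). The 2 were Ccl24, lower by 0.97 (SE 0.334, edgeR adjusted p = 0.154), and Ccl5, lower by 1.13 (SE 0.49, edgeR adjusted p = 0.267) on the log2 scale. Cxcl9 had a mean of 20.7 ± 12.3 CPM in MD + PE against 42.7 ± 22.3 CPM in MD + Veh (SD), a log2 difference of -1.05 (SE 0.525, edgeR adjusted p = 0.347). Its approximate 95% interval, from -2.08 to -0.0184, leaves out 0, but the unadjusted edgeR p was 0.0606. Ccl9 differed by -0.01 with an interval from -0.343 to 0.319, and Cxcl12 by -0.01 with an interval from -0.228 to 0.211.

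The receptors Ccr2, Cx3cr1 and Cxcr4 had a larger SD within MD + PE (2.93, 1.73 and 1.04 CPM) than difference in mean from MD + Veh. MD + PE replicate 4 was the highest of its group for 12 of the 24 members that reach 1 CPM, among them Ccl2 (3.09 CPM), Ccr2 (8.78 CPM), Cx3cr1 (4.73 CPM) and Cxcr4 (2.88 CPM). The same liver had the highest sum of lipid-associated macrophage markers of its group, 244 CPM where the group median was 86.4 CPM. MD + Veh replicate 4 was in turn the lowest of its group for 13 of the 24 members. The shares of all genes for which these livers were highest or lowest are not given here, so these counts are not read as results about the members. The part of macrophage content in these values was not tested.

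**Figure D4:**
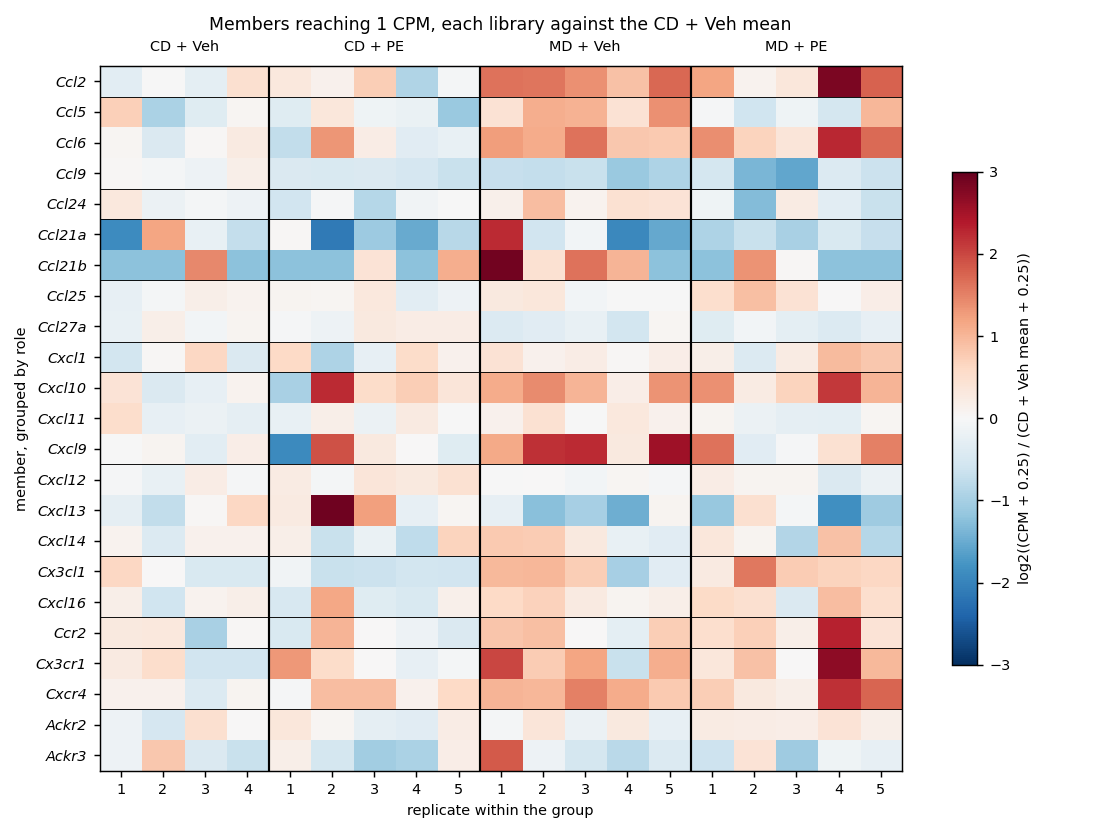
Each column is a liver library, grouped by treatment, and each line 1 of 23 members that reach 1 CPM, ordered by role; color is log2 of (CPM + 0.25) over (CD + Veh mean + 0.25), red above and blue below. CD + PE replicate 2 is red for Cxcl9, Cxcl10 and Cxcl13, CD + PE replicate 1 is blue for Cxcl9 (2.82 CPM), MD + PE replicate 4 is dark red for Ccl2, Ccr2 and Cx3cr1, and Ccl9 is blue in all groups but CD + Veh.

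The interaction of PE with diet asks whether the PE difference on MASH diet was unlike that on control diet. Of 28 members 0 passed the edgeR test and 0 were at an unadjusted p below 0.05, where 0.00735% of all genes tested passed the test and 8.77% were at an unadjusted p below 0.05; DESeq2 also called 0. Ccl9 had an interaction of 0.48 on the log2 scale (SE 0.244, edgeR adjusted p = 0.599) with an approximate 95% interval from 0.00605 to 0.963. That interval leaves out 0, but the unadjusted edgeR p was 0.0618. Cxcl9 had -1.55 (SE 0.786, edgeR adjusted p = 0.606) and Cx3cl1 1.23 (SE 0.723, edgeR adjusted p = 0.663). The same contrast tests whether the diet difference with PE was unlike that with vehicle. A call in 1 of the diet comparisons and not in the other is therefore not a difference between them that passed the test, for any member. The diet comparisons share no library with each other, but each shares its groups with the PE comparisons.

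The 37 members that did not reach a group mean of 1 CPM are accounted for as follows. Ccl19, Ccl21d, Cxcr6 and Ackr4 passed the filter below 1 CPM, and 0 of the 4 passed the test in any comparison; Ccl19, a ligand of Ccr7, had means of 0.402 CPM in CD + Veh and 0.818 CPM in MD + Veh, and Cxcr6, the receptor of Cxcl16, had 0.752 and 0.714 CPM. Of the others, 27 had a count in some library. The T cell and dendritic cell ligands Ccl17, Ccl20 and Ccl22 reached at most 0.179, 0.286 and 0.891 CPM in a library. The macrophage ligands Ccl3 and Ccl4 reached 0.681 and 0.686 CPM, Ccl11 reached 0.835 CPM, Ccl28 reached 0.752 CPM and Ccl21f 0.932 CPM. Among the neutrophil ligands Cxcl2 had a count in all 19 libraries but at most 0.759 CPM, and Cxcl5 reached 1.36 CPM in 1 library. Cxcl17 had 2 counts in all, and Xcl1 reached 0.506 CPM.

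Receptors below 1 CPM made up most of the receptor genes. Ccr1, through which Ccl6 and Ccl9 act, was at 0.754 CPM or less, with a count in 12 of 19 libraries. Ccr7 and Ccr9 were at 0.608 and 0.521 CPM or less, and Ccr3, Ccr4, Ccr6, Ccr8 and Ccr10 had 8, 3, 4, 4 and 1 counts in all. Cxcr2, the neutrophil receptor of Cxcl1, was at 0.48 CPM or less, Cxcr5, the receptor of Cxcl13, at 0.868 CPM or less, and Xcr1, the dendritic cell receptor of Xcl1, at 1.93 CPM or less with 1 library at or above 1 CPM. These members were removed by the low-count filter and differences between groups were not tested for them.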

How the data were processed

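Poly(A) RNA-seq libraries were prepared by the authors from bulk liver of 19 mice and trimmed with fastp 0.23.4. The authors quantified them with Salmon 1.10.3 against the GENCODE transcriptome of GRCm39 (release not given in the sources used here) and summed transcripts to genes; the deposited values are estimated counts per gene, held as whole numbers and not normalized. Groups were taken from the sample labels. Members and lists were chosen with earlier results of these data known.

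Counts were analysed with edgeR 4.0.16 in R 4.3.3 (TMM factors, filterByExpr by group, glmQLFit and glmQLFTest over all 19 libraries with 1 coefficient per group). The filter left 13597 of 55836 genes, and p-values were adjusted over all of them by the Benjamini-Hochberg method. Levels are TMM CPM; exon lengths and positions came from GENCODE vM39 on GRCm39, to which all 61 members matched by symbol. Values in every library are given for members called in any comparison and for the member with the most CPM per kb in each role among those reaching 1 CPM; 1 member is counted in all totals but its values are not reported here. The 95% intervals are the estimate ± 1.96 SE. Scripts were tested on simulated data. Alternatives were other normalization factors, DESeq2 1.42.0, other filters, no minimum fold change, robust dispersion, fits of the compared groups alone, a replicate block, 2 covariates, thinning to 10398820 counts, and leaving libraries out. Leaving out 3 livers high in other tissues together was chosen after seeing the data.

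Replicate numbers were shared among groups but no label says that they pair mice: over 27 pairs with the same number, deviations from group means had a median correlation of 0.0293, and 6 pairs were above 0.1, so samples were treated as unpaired. Replicates of a group were different libraries, since their counts differed by more than sampling noise in all 36 pairs. Mice are the replicates, and the cages they shared are not given in the sources used here. CPM of genes with few counts carry counting error, and 3 counts were used as the detection floor. No protein sequence was used here.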

Additional observations from a re-analysis of the deposited data

Results flagged for a closer look

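Each of 23 members that reach 1 CPM was examined in each of 4 groups for a liver far from the rest, by comparing the gap to its nearest neighbour with the range of the group. Of 92 sets of values, 20 had such a liver, over 16 members. For independent, normally distributed values the rule would flag about 1 in 20. These sets share livers and some rest on few counts, so the 20 are not read as an excess. CD + PE replicate 2 stood apart as the highest of its group for 5 members: Ccr2 at 3.42 CPM, Cxcl10 at 9.11 CPM, Cxcl13 at 6.57 CPM, Cxcl16 at 15.4 CPM and Cxcl9 at 43 CPM. This liver also had the most Kupffer cell marker RNA of all 19, 734 CPM. In the same group, Ccl9 was lowest in replicate 5 at 29.4 CPM and Cx3cl1 highest in replicate 1 at 0.497 CPM.

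In MD + PE, replicate 4 stood apart for Ccr2 at 8.78 CPM, Cx3cr1 at 4.73 CPM and Ackr2 at 1.85 CPM, and it held the most lipid-associated macrophage marker RNA of its group. Replicate 2 stood apart for Cx3cl1 at 2.17 CPM and Ccl21b at 1.25 CPM, and replicate 5 for Ccl5 at 1.26 CPM. In MD + Veh, replicate 1 stood apart for Ackr3 at 4.24 CPM and Ccl21a at 8.47 CPM, with 2710 CPM of skeletal muscle markers.

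In CD + Veh the values that stood apart were Cxcl11 in replicate 1 at 5.28 CPM, Ccl21b in replicate 3 at 1.34 CPM (0 in the other livers), Cxcl14 in replicate 2 at 0.572 CPM, Cxcl16 in replicate 2 at 4.44 CPM and Cxcr4 in replicate 3 at 0.268 CPM. In this group, no liver stood apart for more than 2 members. No member had a PE difference whose change with diet passed a test.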

How the results depend on the processing

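For PE against vehicle on either diet and for the interaction, 0 members were called under all alternatives run, except 1 (Ccl9) on control diet with only the compared groups fitted. For diet with vehicle (4 members called), 2 were called with no low-count filter, 7 with only the compared groups and 0 with the clock score as covariate; leaving out each library gave 1 to 6 (1 without CD + Veh replicate 1, 2 or 3 or MD + Veh replicate 2 or 3, 2 without CD + Veh replicate 4 or MD + Veh replicate 1, 6 without CD + PE replicate 2). Ccl9 passed in 30 of 31 fits. For diet with PE (1 called), DESeq2 called 4, and 0 were called with no filter, only the compared groups, thinned counts or without the 3 livers high in other tissues; leaving out each library gave 0 to 4 (0 without CD + PE replicate 3, 4 or 5, 4 without CD + PE replicate 2). The cause was not tested. Counts of members called in alternative fits, here and elsewhere, are given without the share of all genes called in the same fit. They are therefore not read as results about the members. The 24 members reaching 1 CPM were 23 to 24 without each library and 14 when every library of a group had to reach it. No called member changed direction.

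With the replicate number as a block, 2 members were called for diet with vehicle: Cxcr4 (edgeR adjusted p = 0.0714) and Cxcl9 (0.0761) missed the threshold; other counts were the same, and the numbers are not known to pair mice.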
